A study of Caenorhabditis elegans with 2 samples.

Results

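Chromatin immunoprecipitation with sequencing (ChIP-seq) of tagged UNC-42 placed 305 of its 4780 optimal peak summits inside genes that make no protein, such as transfer RNA (tRNA), small nuclear RNA (snRNA) and short unnamed RNA genes. The 305 summits were chosen by annotation alone: each lay inside an Ensembl WBcel235 gene of a biotype other than protein_coding, and outside the body of every protein-coding gene. They made up 6.38% of the optimal set (95% exact Clopper-Pearson interval 5.70 to 7.11%), and they lay in 387 distinct genes. The other optimal summits were 2821 outside every annotated gene, called intergenic here, and 1654 inside protein-coding gene bodies. Of these 1654, 159 were inside a non-coding gene as well, and the rule left them out.

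The samples were 2 biological replicates of 1 group, of whole late embryos of hermaphrodite Caenorhabditis elegans strain OP173. Embryos were taken 3 hours after synchronisation by egg bleaching. The strain stably expressed UNC-42 with a C-terminal GFP-FLAG tag, and chromatin was recovered with an antibody against GFP, per the labels' description, although the labels' antibody entry names unc-42. No worm without the tag and no other tagged protein was analysed, so whether a summit depends on UNC-42 cannot be told here, and with 1 group there was no test between conditions. Many shares are therefore given with their counting intervals, which treat summits as independent and cover counting error only. Shares printed without an interval carry counting error as well. The number of reads behind each sample is unknown, and since whole embryos were used the cells behind a summit are not known.

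UNC-42 is a homeodomain transcription factor best known for setting the identity of several kinds of neuron, command interneurons among them. The non-coding genes under its summits belong to classes with different polymerases and promoters. tRNA genes are read by RNA polymerase III from promoter elements inside the gene, the A box near the 5' end and the B box nearer the 3' end. Spliced leader 2 (SL2) RNAs, annotated as snRNA genes named sls-2, donate the short leader that is trans-spliced onto the downstream genes of worm operons. Small nucleolar RNAs (snoRNAs) guide the chemical modification of ribosomal RNA, piRNAs guide silencing in the germline, and pseudogenes are disabled copies of coding genes. Most worm genes of the biotype ncRNA are short and have no known role.

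Sequences from the main classes show what these places looked like. They were read from the RefSeq sequence of WBcel235, the assembly of ce11, and each is written 5' to 3'. The first 3 are the highest-signal tRNA members that could be printed, of leucine, leucine and alanine, with ranks of 478, 2253 and 2418. In these genes, given along the transcribed strand, capitals mark the core of the B box (GTTCGA or GTTCAA).

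C04A11.t1 (chrX:13665555-13665673, plus strand): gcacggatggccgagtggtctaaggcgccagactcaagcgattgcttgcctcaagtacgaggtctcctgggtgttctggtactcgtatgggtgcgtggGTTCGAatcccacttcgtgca

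C40H5.t1 (chrX:11757831-11757914, minus strand): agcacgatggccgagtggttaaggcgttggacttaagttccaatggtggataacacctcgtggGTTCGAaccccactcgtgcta

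ZK622.t1 (chrII:5292332-5292403, plus strand): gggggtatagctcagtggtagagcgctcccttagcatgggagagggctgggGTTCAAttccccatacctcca

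The SL2 RNA gene sls-2.2 is shown along its transcribed strand as the only snRNA member printed, with its summit base in capitals.

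sls-2.2 (chrII:5543598-5543707, plus strand): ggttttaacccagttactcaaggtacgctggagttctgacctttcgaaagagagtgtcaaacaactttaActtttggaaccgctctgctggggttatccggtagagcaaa

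For the other classes, the 101 bases centred on the summit are given on the plus strand, with the summit base in capitals. They are the 3 strongest ncRNA members, the ncRNA member beside glr-1, the strongest lincRNA (long intergenic non-coding RNA) member and the strongest pseudogene member.

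F31F7.6 (chrV:6267573-6267673, plus strand): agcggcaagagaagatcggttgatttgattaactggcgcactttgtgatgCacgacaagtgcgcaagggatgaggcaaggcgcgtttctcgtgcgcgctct

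F54E4.15 (chrX:14649400-14649500, plus strand): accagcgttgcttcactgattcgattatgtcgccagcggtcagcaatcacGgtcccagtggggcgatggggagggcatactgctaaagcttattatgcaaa

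C31H2.11 (chrX:5129594-5129694, plus strand): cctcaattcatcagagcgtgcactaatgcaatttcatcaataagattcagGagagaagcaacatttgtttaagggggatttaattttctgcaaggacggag

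C06E1.12 (chrIII:8588911-8589011, plus strand): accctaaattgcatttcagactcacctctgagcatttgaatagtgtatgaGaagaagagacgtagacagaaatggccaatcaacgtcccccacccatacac

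linc-153 (chrV:11641617-11641717, plus strand): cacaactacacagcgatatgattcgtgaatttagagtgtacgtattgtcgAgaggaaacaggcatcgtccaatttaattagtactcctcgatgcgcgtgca

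Y17D7C.3 (chrV:18723705-18723805, plus strand): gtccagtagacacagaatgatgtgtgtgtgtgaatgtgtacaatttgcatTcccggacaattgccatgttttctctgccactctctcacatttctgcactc

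Each of these 101-base windows occurred once in the genome. Of the tRNA genes shown, C04A11.t1 occurred once, C40H5.t1 in 2 exact copies and ZK622.t1 in 17.

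The first question was which classes of non-coding gene held the summits. Summits were dense in tRNA and ncRNA genes and sparse in pseudogenes and piRNA genes. Of the 305, 256 fell in the class ncRNA, 23 in tRNA, 11 in lincRNA, 8 in pseudogenes, 2 each in snRNA and antisense RNA genes, and 1 each in snoRNA, miRNA and piRNA genes. No ribosomal RNA gene of 20 held one (upper 95% limit 16.8%), and whether reads could be placed at these genes was not tested. A summit in genes of several biotypes was classed once, with tRNA before the others, and 274 summits lay inside an ncRNA gene when each biotype was counted by itself.

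The classes differ greatly in how much sequence they cover, so summits were set against the bases of each class that lie outside protein-coding gene bodies. tRNA genes held 957 summits per Mb (95% Poisson interval 607 to 1436) and ncRNA genes 432 per Mb (382 to 486). Intergenic sequence held 84.5 per Mb (81.4 to 87.7). Over all non-coding genes together the density was 75.1 per Mb (66.9 to 84.0), with pseudogenes supplying 3011 of the 4062 kb. Pseudogenes held 2.66 summits per Mb (1.15 to 5.24) and piRNA genes 6.44 (0.163 to 35.9). The density of lincRNA genes, 51.7 per Mb (25.8 to 92.5), had an interval that took in the intergenic value, as did that of snRNA genes, 256 per Mb (31.0 to 924).

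**Figure D1:**
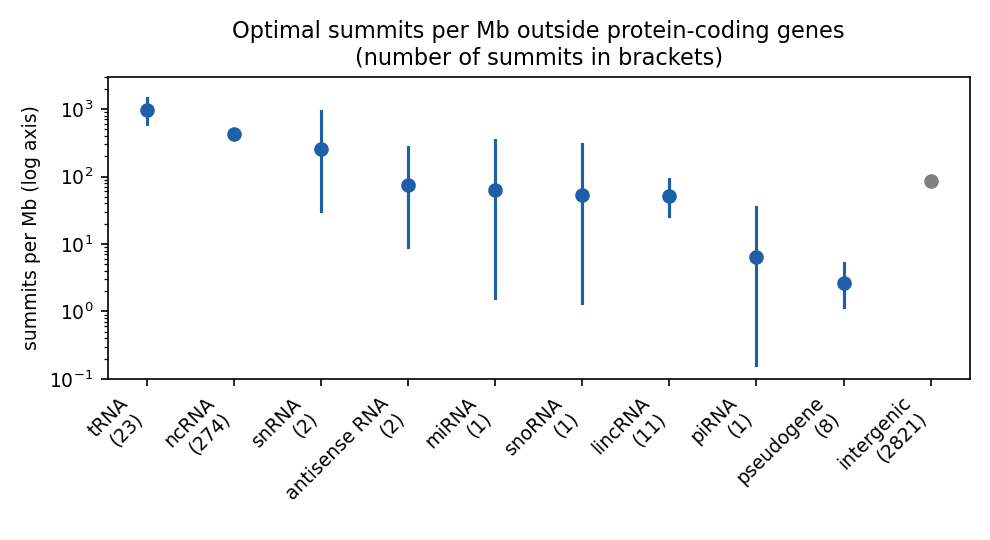
Optimal summits per Mb of sequence outside protein-coding gene bodies (log axis) for each non-coding biotype and, in grey, for intergenic sequence, with 95% Poisson intervals as lines and the number of summits in brackets. tRNA genes at 957 and ncRNA genes at 432 per Mb lie above the intergenic 84.5, and pseudogenes at 2.66 lie below it.

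Counted by gene, 23 of the 322 tRNA genes with bases outside protein-coding gene bodies held a summit, 7.14% (interval 4.58 to 10.5%). The share was 7.71% for ncRNA genes (337 of 4370, interval 6.94 to 8.54%) and 6.25% for lincRNA genes (11 of 176). It was 0.425% for pseudogenes (8 of 1881) and 0.0211% for piRNA genes (2 of 9485, which overlap at 1 summit). These shares do not allow for gene length. The median length was 1248 bp for these pseudogenes, 804.5 bp for lincRNA genes, 141 bp for ncRNA genes and 72 bp for tRNA genes.

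Summits in tRNA genes lay mostly near the 5' end. Of the 23 tRNA members, 17 (73.9%, interval 51.6 to 89.8%) lay nearer to the 5' end than to the 3' end, and 15 lay within 20 bp of the 5' end, with a median of 15 bp. Among ncRNA members, 128 of 256 (50%, interval 43.7 to 56.3%) lay nearer to the 5' end. A summit lay within 100 bp before the 5' end of 26 of the 322 tRNA genes, and within 100 bp after the 3' end of 4. The corresponding counts for the 4370 ncRNA genes were 113 before and 135 after. In both replicates more tRNA genes had a summit before than after, with 28 before and 5 after in replicate 1 and 26 before and 7 after in replicate 2, each over its 4780 highest-signal regions. Over all 612 tRNA genes, those inside protein-coding genes included, the optimal set gave 45 before and 11 after. Around the 322 genes, summits were mostly close to the start, with 24 pairs of summit and gene in the 50 bases before the 5' end, 18 in the first 50 bases of the gene, and 2 between 51 and 100 bases before it. At the 19 tRNA members in the top regions of both replicates, the nearest replicate summits lay a median of 27 bp apart and at most 76 bp, beside a median tRNA gene length of 73 bp.

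**Figure D2:**
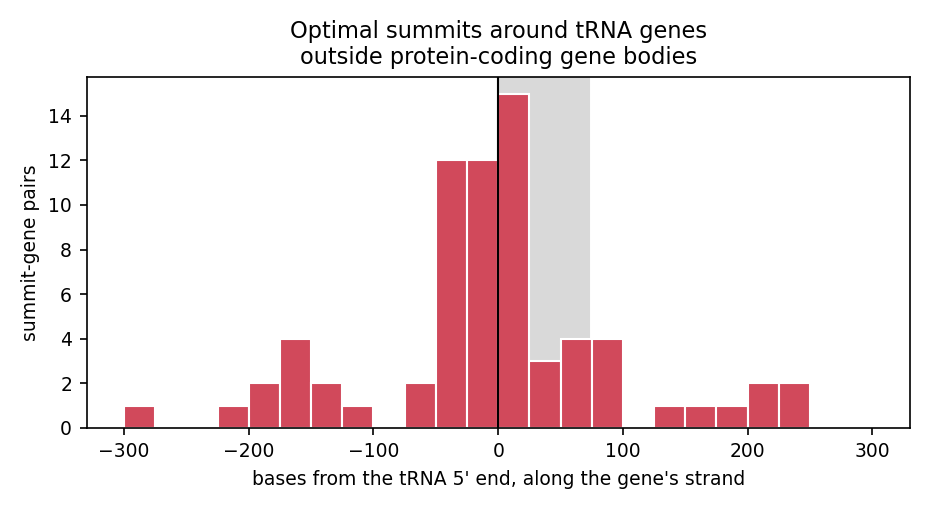
Number of pairs of an optimal summit and a tRNA gene (vertical axis) by the distance of the summit from the tRNA 5' end in bases, along the gene's strand, for the 322 tRNA genes with bases outside protein-coding gene bodies. The grey band spans 73 bases, the median length of the tRNA genes with a summit. The 50 bases before the 5' end hold 24 pairs and the 50 after it hold 18.

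The strongest tRNA member was W03G11.t1, a lysine tRNA gene (X, 12106147 to 12106219), with its summit on the first base, a pooled signal of 403 and rank 216. Its signal was 199 at rank 166 in replicate 1 and 211 at rank 261 in replicate 2, each on the scale of its own list. C42D8.t1, an isoleucine tRNA gene (X, 5085622 to 5085695), reached a signal of 321, with ranks of 387 and 410 in the replicates. Its 51 bases around the summit occur 20 times in the genome, and how reads with several matches were treated is not given in the sources used here. C04A11.t1, the leucine tRNA gene printed above (X, 13665555 to 13665673), had a signal of 301, ranks of 406 and 592, and its summit 16 bp from the 5' end. W09G10.t2, a second lysine tRNA gene (II, 3519250 to 3519322), had a signal of 260 and ranks of 784 and 610. R01H5.t1, a threonine tRNA gene (X, 12563788 to 12563859), followed at 158 with ranks of 1944 and 1938. The median signal of the 23 was 130 and the median rank 2645. The first 4 lay in the 956 strongest optimal peaks, and none of the 23 in the next 956. C40H5.t1 and ZK622.t1, printed above, had signals of 144 and 137, with summits 82 and 64 bp from the 5' end, toward the other end of the gene.

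The 23 tRNA genes carried 14 amino acids by RefSeq product. Lysine and arginine had 3 genes each, and alanine, isoleucine, leucine, serine and threonine had 2 each. None of the 15 glutamine, 13 histidine, 11 tyrosine, 17 valine, 5 tryptophan or 4 cysteine tRNA genes counted held a summit, although 3 valine genes and 1 tyrosine gene had one within 100 bp. At 0 to 3 genes each, a difference between amino acids was not detectable. A B box core was found in 309 of the 322 tRNA genes (96.0%) and in all but 1 of the 23. It belongs to the tRNA sequence and so follows from the choice of genes.

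The snRNA members were few and strong. The summit in sls-2.4 (I, 4172206 to 4172315), an SL2 RNA gene, had a pooled signal of 1094 and rank 3 of all optimal peaks, and ranks of 3 and 5 in replicates 1 and 2, at signals of 503 and 593. The summit lay 100 bp from the 5' end of a gene of 110 bp, and 717 bp from the start of egg-5, which acts in the change from oocyte to embryo. The summit in sls-2.2 (II, 5543598 to 5543707) had a signal of 507 and rank 107, with ranks of 120 and 100 in the replicates, and lay 69 bp from the 5' end. Both summits also lay inside an ncRNA gene on the opposite strand, R12E2.18 at sls-2.4 and C17C3.23 at sls-2.2. They were classed as snRNA by the order of biotypes, and which gene a peak belongs to cannot be told from its summit. Of the 12 sls-2 genes with bases outside protein-coding gene bodies, these 2 held a summit and 4 had one inside or within 100 bp. The additional pair was sls-2.1, with a summit 31 bp before its 5' end at a signal of 638, and sls-2.8, with one 45 bp before its 5' end at 221. None of the 12 genes for SL1 RNA, the leader of first genes and single genes, had a summit within 100 bp (upper 95% limit 26.5%). The relaxed pooled list had none there either. Genes of such classes often have near-identical copies. The treatment of reads with several matches is not given, and whether reads could be placed at these 12 genes was not tested. No summit lay inside any of the 42 other snRNA genes counted the same way, and 3 of them had one within 100 bp.

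snoRNA genes had summits beside them more often than inside them. Only F37F2.4 (I, 1444507 to 1444641) held one, with a signal of 83.0 at rank 4696, and it ranked 8091 and 4592 in the replicates. Within 100 bp before the 5' end, however, lay summits of 24 of the 130 snoRNA genes with bases outside protein-coding gene bodies, and within 100 bp after the 3' end that of 1. Replicate 1 gave 22 before and 0 after, and replicate 2 gave 21 before and 1 after. Counted the same way in the optimal set, summits lay before 26 of 322 tRNA, 113 of 4370 ncRNA and 5 of 65 snRNA genes. A difference between these classes was not tested. The 24 summits lay between 98 and 11 bp before the gene, with a median of 45.5 bp. Their signals ran from 87.3 to 400, with a median of 143. All 24 were outside protein-coding gene bodies. Of the 24, 2 also lay inside an ncRNA gene and are ncRNA members, D2021.5 beside D2021.6 and T27A3.12 beside T27A3.9. The other 22 lay inside no non-coding gene and are not members.

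Genes of the biotype ncRNA held most members. The median length of ncRNA genes with a member was 148 bp, and 170 of the 256 ncRNA members lay in a gene of 200 bp or less. The strongest was at F31F7.6 (V, 6267418 to 6267637), with a signal of 947 at rank 10. Replicate 1 gave it rank 13 at a signal of 412, and replicate 2 gave rank 9 at 533. It lay 336 bp upstream of mrck-1, a gene for a kinase of the actin and myosin system. The gene F54E4.15 (14649365 to 14649510 on X) gave a signal of 923 and ranks of 8 and 15. C31H2.11 (X, 5129564 to 5129863) had a signal of 913 and ranks of 12 and 13, and lay 4636 bp upstream of tbc-7, its nearest protein-coding 5' end. ZC64.6 (X, 3875841 to 3876005) had a signal of 662, ranks of 42 and 46, and lay 2373 bp upstream of lim-4, a LIM homeobox gene of neuron identity. B0336.16 (III, 5720418 to 5720561) had a signal of 647, ranks of 43 and 53, and lay 2333 bp upstream of wrm-1, a beta-catenin gene. For each of these 5, the replicate ranks differed by at most 10. The remaining ncRNA members of the 10 strongest were F55A4.12 with a signal of 604 and F46G11.16 with 560.

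Some summits inside ncRNA genes lay where annotated genes overlap on opposite strands. Of the 274 summits inside ncRNA genes, 66 had an ncRNA gene on each strand. Such sequence held 680 summits per Mb (95% Poisson interval 526 to 865), against 387 per Mb (336 to 443) where ncRNA genes lie on 1 strand. F31F7.6 was one of these, overlapping F31F7.8, and F54E4.15 overlapped F54E4.9. Over all members, 84 lay in 2 or more non-coding genes and 83 had genes on both strands. Among tRNA members, 15 of 23 also lay in an ncRNA gene, and so did the 2 snRNA members. The peak interval was wider than the gene for 250 of the 305 members, with a median interval width of 456 bp, so the summit and not the interval placed a peak in a gene. No gene held 3 summits, and R13H4.11, T19F4.6 and Y37A1B.330 held 2 each.

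The lincRNA members ran from strong to weak, with 5 of 11 among the 2390 strongest optimal peaks and 2 among the 239 strongest. The pseudogene members were mostly of low signal, with 1 of 8 among the 2390 strongest. Among lincRNA members, linc-153 (V, 11641024 to 11643916) had a signal of 529 with ranks of 88 and 94, and its summit also lay in the ncRNA genes T27F2.5 and T27F2.6. The summit in linc-128 (V, 1150906 to 1153207) had a signal of 425 with ranks of 137 and 271. linc-147, linc-95 and linc-91 followed at signals of 224, 207 and 157, and the median of the 11 was 127. Of the 8 pseudogene members, Y17D7C.3 (V, 18720589 to 18723771) had a signal of 255 with ranks of 598 and 915. ZK1251.5, W09C5.9, wago-2 and C01G12.12 followed at 126, 122, 93.9 and 88.0, and the pseudogene median was 90.9. The summit in wago-2, annotated here as a pseudogene of the Argonaute family, ranked 2055 in the replicate 1 list and had no entry within 100 bp in the replicate 2 list. The antisense RNA genes anr-24 and C02F4.12 had signals of 93.8 and 89.2. The miRNA gene cel-mir-8209 had 184 and ranks of 1441 and 1587. The piRNA genes 21ur-9589 and 21ur-11603 shared 1 summit with a signal of 90.4. The weakest member was at C41G11.19, with a signal of 81.9 at rank 4756.

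**Figure D3:**
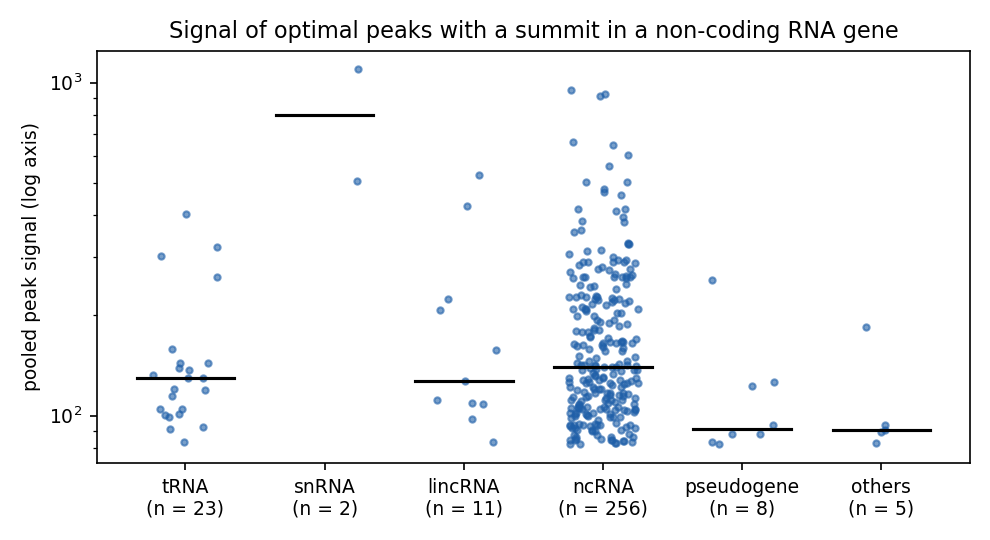
Pooled peak signal, the score of the authors' peak caller (log axis), of each of the 305 members by class, with the median of each class as a line. The 2 snRNA members lie at 507 and 1094, while the medians of tRNA, lincRNA and ncRNA members lie between 127 and 140.

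The signal of the members covered nearly the whole range of the optimal set. It ran from 81.9 to 1094 with a median of 136, against a range of 81.6 to 1404 and a median of 141 for intergenic summits. The 2390 strongest peaks, or 50% of the optimal set, held 147 of the 305 (48.2%, interval 42.5 to 54.0%). Members were 21 of the 239 strongest peaks, a set cut at 5% of the list, which is 8.79% of those peaks (interval 5.52 to 13.1%). In 5 steps of 956 peaks from strong to weak, members made up 6.9%, 5.75%, 6.07%, 7.22% and 5.96% of the summits. In the relaxed pooled list after rank 4780, which also holds background, 3.53% of 18998 entries met the same rule (interval 3.27 to 3.80%).

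Both replicates placed most of the same sites. Of the 305 members, 226 (74.1%, interval 68.8 to 78.9%) had a summit within 100 bp among the 4780 highest-signal regions of both replicate lists. The share over all 4780 optimal summits was 76.8%, and for intergenic summits it was 78.5%. The members in neither top list were 2 (0.656%), F47B10.12 and C41G11.19, beside 1.74% of all optimal summits. The tRNA members were in both top lists at 19 of 23 (82.6%). Across the 287 members with an entry in both replicate lists, replicate signals correlated with Spearman's rho = 0.789, and across the 4309 other optimal summits with rho = 0.787. These shares and correlations are descriptions across peaks that were selected on the pooled signal of the same replicates. The optimal set was also chosen by irreproducible discovery rate, so agreement between replicates was favoured in advance. Replicate 1 ranked 141 of the 287 higher than replicate 2 did.

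**Figure D4:**
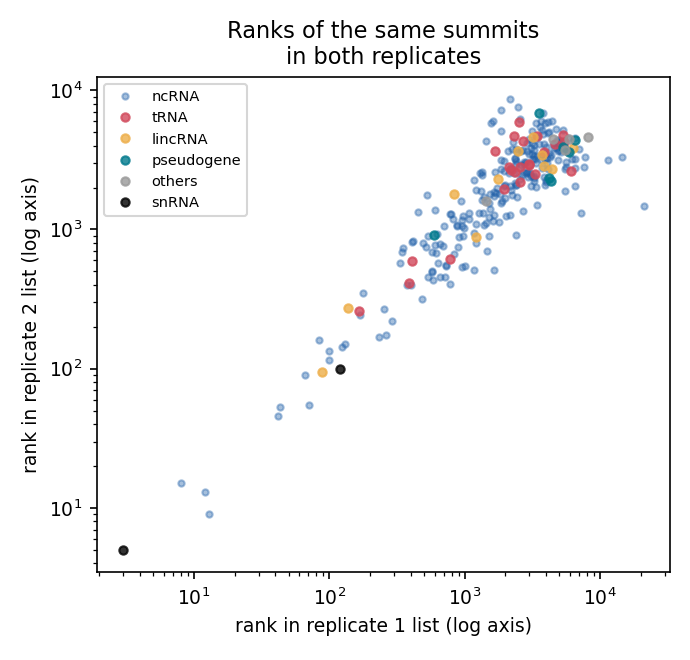
Rank of each of 287 members in the replicate 1 list (horizontal) and in the replicate 2 list (vertical), both on log axes, coloured by class. The strongest members lie near the diagonal, from sls-2.4 at ranks 3 and 5, and the spread widens among the weaker ones.

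The next question was how the members stood to protein-coding genes. The share of members close to a coding start was below that of intergenic summits and near that of all optimal summits. How close non-coding genes with no member lie to coding starts was not measured. Of 305 members, 127 had a protein-coding 5' end no further than 1000 bp away (41.6%, interval 36.0 to 47.4%), as did 1535 of 2821 intergenic summits (54.4%, interval 52.6 to 56.3%). The share over all optimal summits was 44%. The median distance was 1303 bp for members, 769 bp for intergenic summits and 1329 bp for all optimal summits. On either side, the flanking coding genes were divergent for 148 members (48.5%), tandem for 146 (47.9%) and convergent for 11 (3.61%), beside 49.9%, 47.9% and 2.2% of intergenic summits. Among tRNA members, 4 of 23 lay between convergent genes (17.4%, interval 4.95 to 38.8%).

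The 127 close members had 126 distinct nearest coding genes. The summit beside glr-1, the AMPA-type glutamate receptor gene of command interneurons, lay in the ncRNA gene C06E1.12 (III, 8588915 to 8589062), 319 bp upstream of glr-1. It had a signal of 381 at rank 256, with ranks of 254 and 267 in the replicates. Ribosomal protein genes were nearest to 5 of the 127 (3.94%), and to 38 of all 2104 optimal summits within that distance (1.81%). They were rps-1, rpl-24.1, rpl-5, rpl-7 and rpl-1, at distances of 240 to 399 bp and signals of 330, 300, 178, 122 and 82.8. The share of 3.94% rests on 5 summits and has no interval here, and its difference from 1.81% was not tested. The following neuronal neighbours were chosen after their values were seen. Neuronal genes among the 126 were not counted, so the examples do not show that such neighbours were frequent. C18A3.16, 72 bp from the 5' end of rab-3, the small GTPase of synaptic vesicles, had a signal of 220. F59F5.9, 442 bp from syd-2, a gene for a liprin of the active zone, had 246. F17C8.10, 105 bp from acy-1, an adenylyl cyclase gene, had 226.

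Chromosome X carried the largest number of members. It held 99 of 305 (32.5%), against 21.1% of intergenic summits (interval 19.6 to 22.7%). Chromosome V held 62 (20.3%), IV 43, II 42, I 32 and III 27. Over all non-coding genes the density was 159 summits per Mb on X (95% Poisson interval 130 to 194), and from 46.8 on V to 90.1 on I on the others. The ncRNA genes themselves were concentrated on X, which held 36.3% of ncRNA sequence outside protein-coding gene bodies and 33.6% of the summits in it. The density in ncRNA genes was 399 summits per Mb on X (95% Poisson interval 321 to 489), and on the other chromosomes it ran from 404 on IV to 578 on I (interval 374 to 853). For tRNA genes, X held 12 of 23 summits (52.2%) and 56.1% of the sequence. Within ncRNA genes and within tRNA genes, taken apart, the density on X was not above that on every other chromosome.

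**Figure D5:**
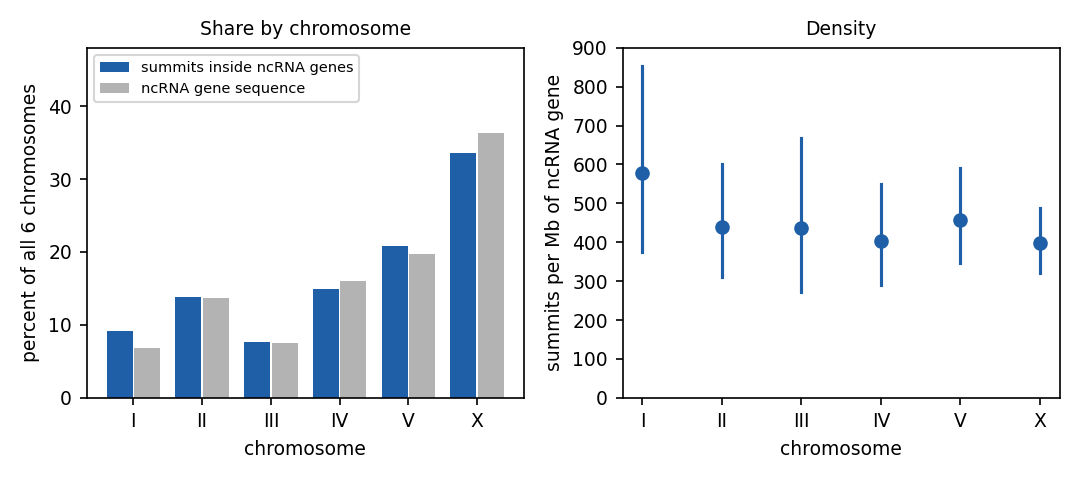
Left, the percent of summits inside ncRNA genes (blue) and of ncRNA gene sequence outside protein-coding gene bodies (grey) on each chromosome. Right, summits per Mb of that sequence with 95% Poisson intervals. X has 33.6% of the summits and 36.3% of the sequence, and all 6 intervals overlap.

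The last question was what sequence lay under the members. GC content within 100 bp of the summit on either side had a median of 45.8% for members, against 41.3% for intergenic summits. For ncRNA members alone it was 45.8% as well. In windows of that size at the mid-points of 3876 ncRNA genes outside protein-coding gene bodies with no member, it was 42.3%. These 3876 are the ncRNA genes with no member in all comparisons below. Member windows were centred on summits, which can lie anywhere in the gene, so the windows compared were not placed alike. The GA repeat GAGAGAGA, searched like all motifs here on both strands, lay at 31 members (10.2%, interval 7.01 to 14.1%). It lay at 11.2% of intergenic summits and at 11.7% of all optimal summits. Among the 256 ncRNA members it lay at 9.38% (interval 6.10 to 13.6%), beside 7.09% of the ncRNA genes with no member. TAATTA, a core sequence bound by many homeodomains, lay at 20 members (6.56%, interval 4.05 to 9.95%). It lay at 9.93% of intergenic summits and at 10.9% of all optimal summits. Among ncRNA members it lay at 5.86% (interval 3.32 to 9.48%), beside 5.52% of the ncRNA genes with no member (interval 4.82 to 6.29%).

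GTTCGA lay at 38 members (12.5%, interval 8.97 to 16.7%), 16 of them in tRNA genes, and at 7.15% of all optimal summits. Among the 256 ncRNA members it lay at 21 (8.2%, interval 5.15 to 12.3%), beside 10.4% of the ncRNA genes with no member. GTTCAA lay at 20 members (6.56%), 6 of them in tRNA genes, and at 9.5% of all. For ncRNA members the share was 5.08%, beside 12.6% of the ncRNA genes with no member. TATAAA lay at 33 members (10.8%) and at 12.5% of all, and at 10.5% of ncRNA members beside 13.6% of the ncRNA genes with no member. The E-box CACGTG lay at 3 members (0.984%, interval 0.203 to 2.85%), beside 3.3% of intergenic summits and 3.33% of all. Its share was 1.17% of ncRNA members (interval 0.242 to 3.39%) and 2.04% of the ncRNA genes with no member (interval 1.62 to 2.53%). A window may hold several of these motifs, and a motif in a window is not shown to be a site that UNC-42 occupies.

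The 51 bases at the summit occurred once in the genome for 300 of the 305 members (98.4%), and for 99.3% of all optimal summits. The 5 others were the tRNA genes C42D8.t1 with 20 copies, T23F1.t1 with 15, F02D10.t2 with 7 and F56F3.t1 with 4, and the pseudogene C01G12.12 with 4. The remaining 19 tRNA members had a sequence at the summit found once. Those 51 bases can reach beyond the gene, so they do not count copies of the gene itself. ZK622.t1, among these 19, occurs as a whole gene in 17 exact copies.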

How the data were processed

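The deposited files were narrowPeak lists on ce10 and ce11, made by the authors. Per the deposited text files, the ce11 lists used were 1 for each replicate (22676 and 20932 regions), 1 for both pooled (23778 regions) and the 4780 peaks of the optimal set by irreproducible discovery rate (IDR). The replicate and pooled lists are relaxed input for IDR and hold background. The deposited signal value is the authors' peak score, whose scale differs between lists, and here ranked peaks. The deposited −log10 q value shares a ceiling and was not used. The sources used here do not name the aligner or peak caller, no reads were used, and depth is unknown.

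A summit is the interval start plus the deposited offset, written 1-based. It was compared with Ensembl release 115 genes and the RefSeq sequence of WBcel235, the same assembly as ce11, on 6 nuclear chromosomes with 19973 protein-coding and 26917 other genes. tRNA names and amino acids came from RefSeq. Intervals are 95% exact Clopper-Pearson intervals of shares and exact Poisson intervals of densities (Python 3.11.15, scipy 1.17.1) and cover counting error only. Membership and distance steps were tested on constructed cases with known answers. A summit in genes of several biotypes was classed by the order tRNA, snRNA, snoRNA, rRNA, miRNA, piRNA, lincRNA, antisense RNA, ncRNA, pseudogene. Alternatives were the strongest 2390 peaks, the interval mid-point, other distances and windows, coding bodies kept, and each replicate alone. The members, lists and motifs were chosen with earlier results of these data known. By rule, genes named are the 10 strongest members, up to 5 per biotype, the weakest member, and those beside glr-1, egg-5 and mrck-1. Named outside it are the genes whose sequence is printed and, chosen after their values were seen, the members beside rab-3, syd-2 and acy-1, the coding neighbours of the ribosomal count, and the genes behind counts of 5 or fewer. Sequences are from the strongest members of a class, without those on chromosome I or with a copy there. A planned count of pan-neuronal neighbours was not made. Counts of summits before and after genes were not among the planned results.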

Additional observations from a re-analysis of the deposited data

How the results depend on the processing

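No paired analysis was possible because there is 1 group. Among the 2390 strongest peaks, 147 members were left, with 8 in tRNA, 5 in lincRNA, 130 in ncRNA and 1 in pseudogenes, and 96.6% were in both replicate tops. Counting summits within 100 bp of a non-coding gene gave 528, with 52 tRNA, 8 snRNA and 396 ncRNA, and keeping those inside protein-coding gene bodies gave 464, with 43 tRNA. The mid-point of the interval left 1 snRNA member. Each replicate alone gave 292 to 298 members, 22 to 26 in tRNA, 11 to 14 in lincRNA, 241 to 248 in ncRNA, 6 in pseudogenes and 2 in snRNA. Each replicate list alone gave median ranks of 2563 to 2808 for tRNA, 2466 to 2715 for lincRNA, 2196.5 to 2302 for ncRNA and 3606 to 4276.5 for pseudogenes, and 41.8 to 41.9% of members within 1000 bp of a coding 5' end.

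With 50 bp in place of 100 bp, 63.6% of members were in both replicate tops. Within 500 and 2000 bp of a coding 5' end lay 28.5% and 63.9%. Motif shares follow the window: with 50 bp to each side GAGAGAGA was at 5.57%, TAATTA at 2.95%, GTTCGA at 7.21%, GTTCAA at 3.93% and TATAAA at 4.59%, and with 200 bp TAATTA was at 13.4%, GTTCGA at 18.0%, GTTCAA at 19.7% and TATAAA at 26.9%. CACGTG was at 0% of members among the 2390 strongest peaks. These are shares of longer or shorter windows or of fewer summits. Why the median ranks moved between replicate lists was not tested. The other 40 values tried stayed within the interval of the share, within 1.5 times the count, or within the spread of the replicates. Unknown read depth, multi-copy genes and summit positions that differ by a median of 20.5 bp between replicates limit what can be said of single genes.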
